A study of Mus musculus with 16 samples.

Results

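Treadmill training was examined in skeletal muscle of wild-type (WT) mice, in 8 of the 16 RNA-seq libraries of a study on exercise and the mitochondrial protein CHCHD4. The 8 libraries were chosen by their labels alone: 4 are labelled WT with treadmill training (WT trained) and 4 WT without it (WT untrained). The other 8 come from mice labelled CHCHD4 Tg (Tg), 4 trained (Tg trained) and 4 untrained (Tg untrained). They are set beside the WT groups here. The labels name neither the muscle, the mouse strain, the age, the length of training nor the promoter of the transgene. Nor do they state that each library is a mouse of its own, and p-values therefore reflect library-to-library spread, which may be technical. Transcripts of 17490 genes were tested, of 55487 in the deposited table.

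Endurance training is known to act on muscle through the coactivator PGC-1α (Ppargc1a), which drives mitochondrial biogenesis, and through calcium signalling by calcineurin, which favours oxidative fibres. Trained muscle is known for more mitochondria, more capillaries and a shift among fast myosin isoforms toward more oxidative ones. Untrained Tg libraries show which genes set the WT untrained libraries apart where no training is involved. Genotype differs in that comparison, so the transgene and other traits of the WT untrained group cannot be told apart by it. CHCHD4 itself, an oxidoreductase of the mitochondrial intermembrane space, stood at 7.26 to 8.85 CPM (counts scaled to library size) in WT trained and 6.88 to 8.98 CPM in WT untrained libraries, against 21.6 to 22.2 CPM in Tg trained and 18.1 to 22.2 CPM in Tg untrained libraries. The genotype labels and the transcript thus went together in every library.

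Library totals ran from 40888325 to 61703724 counts. Markers of skeletal muscle fibres were abundant in every WT library, with a summed level of 146800 to 157100 CPM in WT trained and 106300 to 153600 CPM in WT untrained libraries for the 13 marker genes. One library stood apart from its group before any test. WT untrained 2 differed from the other WT untrained libraries by a chi-square per degree of freedom of 125.6 to 142.6, against 10.44 to 19.86 among the other 3, and had the highest normalisation factor of all (1.285). The summed level of 71 nuclear genes of oxidative phosphorylation was 5792 CPM in that library and 10516 to 10622 CPM in the other 3 WT untrained libraries. It also held 14.9 CPM of Alb, a liver transcript, as did WT trained 4 with 35.6 CPM and Tg untrained 2 with 15 CPM, whereas the other 13 libraries had 0.236 CPM at most. Medians of gene lists below are given with all libraries and without WT untrained 2, and for several lists also without WT trained 4.

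Trained and untrained WT muscle differed past the threshold in few genes, and most of these also set the WT untrained libraries apart from untrained Tg muscle. At an adjusted p under 0.05 (edgeR quasi-likelihood test, Benjamini-Hochberg over all 17490 genes), 25 genes were called, 0.143% of those tested. Of these, 18 were higher in WT trained libraries (0.103%) and 7 lower (0.0400%). Untrained Tg against untrained WT libraries gave 130 calls (0.743%), 87 higher (0.497%) and 43 lower (0.246%), and 21 of the 25 were called there too, in the same direction. The other 4 were Zfp185, Entpd4, Wipf2 and Tmem181b-ps. Both comparisons share the 4 WT untrained libraries, so calls made in both are not independent of each other. Without WT untrained 2, 24 genes were called between the WT groups, 20 of them among the 25, and without WT trained 4 it was 30, with 20 among the 25. The lowest count with 1 library left out was 16, without WT untrained 4, all among the 25.

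In 24 of the 25 genes, the 4 WT untrained libraries lay outside the range of all 12 other libraries, trained or not and WT or Tg, where 156 of all tested genes (0.892%) did so. All 25 had WT groups that did not overlap, as 768 of all tested genes did (4.39%). The choice of the 25 had thus already set the WT trained libraries apart, and the share of all genes is no fair base for the 24. WT trained against Tg untrained libraries, which share no sample with the WT untrained group, gave 4 calls in all (0.0229%), 3 higher (0.0172%) and 1 lower (0.00572%), and 0 of the 25 were among them by edgeR. The lowest adjusted p of the 25 in that comparison was 0.0801, 5 of them had an unadjusted p under 0.05, DESeq2 called 1 and limma-voom 0. The count of 4 ran from 1 to 285 with 1 library left out, with 285 without WT untrained 2 and 38 without WT trained 4, and was 270 without the 3 libraries that held Alb. In each of the last 3 fits, as with DESeq2, 1 of the 25 was called, Zfp185. With all 16 libraries fitted, the WT untrained ones also set the spread used in comparisons of other groups. Training in Tg muscle gave 0 calls by edgeR (0% of genes) and 0 by limma-voom, 132 by DESeq2 and 1938 genes at an unadjusted p under 0.05. That 0 became 93 without WT untrained 2, 104 without the libraries that held Alb and 123 with the 8 Tg libraries alone, and 0 of the 25 were called in any of these fits. Among the 25, 2 genes, Zfp185 and Wipf2, reached an unadjusted p under 0.05 in Tg training, and the largest absolute log2 fold change there was 0.463. Over the 25 genes the median absolute log2 fold change was 1.76 for WT training, 1.61 for untrained Tg against untrained WT, 0.257 for WT trained against Tg untrained and 0.107 for Tg training. The first of these values chose the genes and is a description only. For 21 of the 25 genes, then, the WT untrained group differed past the threshold from both trained WT and untrained Tg muscle. Entpd4, Wipf2 and Tmem181b-ps also had WT untrained libraries outside the range of the others, but missed the threshold against untrained Tg muscle. For these 24 genes, training, genotype and other traits of the WT untrained group cannot be told apart. Tmem181b-ps had -0.37 for untrained Tg against untrained WT (adjusted p = 0.225, edgeR) and -0.43 for WT trained against Tg untrained (unadjusted p = 0.0092). Missing the threshold between WT trained and Tg untrained libraries does not show that they were equal.

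**Figure D1:**
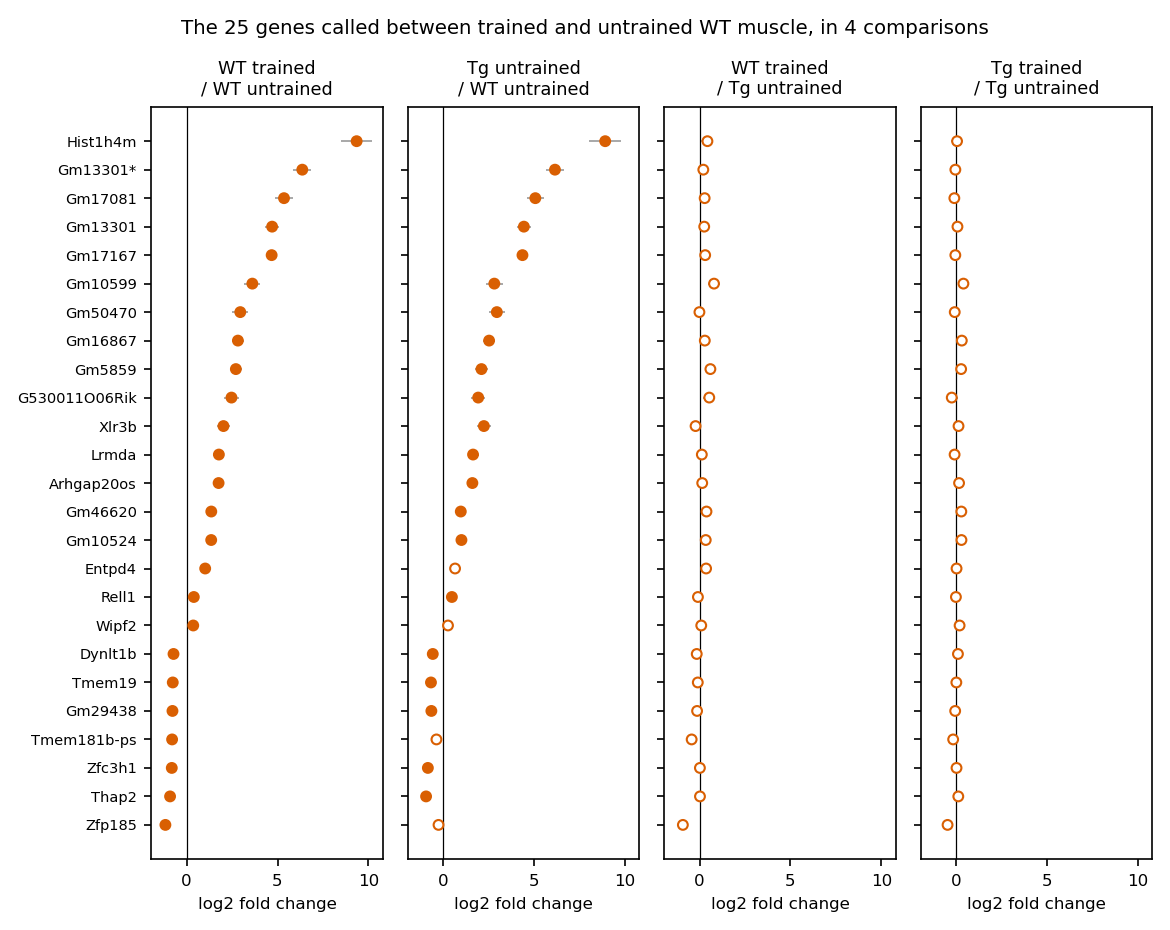
Log2 fold change (x axis, dots with standard error bars) of the 25 genes called between trained and untrained WT muscle (y axis) in 4 comparisons. Filled dots passed an adjusted p of 0.05, and the asterisk marks the second of a pair of identifiers named Gm13301. The left panels, which share the WT untrained libraries, show 25 and 21 filled dots. The right panels, which compare groups other than WT untrained, show none. The spread behind all 4 panels was fitted on all 16 libraries, WT untrained ones included. The value of Hist1h4m is set by 0 counts in WT untrained libraries and measures no fold.

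Many of the called genes sat near one another or overlapped in the genome. Of the 22 with a position in the GENCODE annotation of GRCm38, 13 (59.1%) had another called gene within 100000 bases, against 43 of 17447 other tested genes (0.246%) with a called gene that near. The 13 formed 5 groups, on chromosomes 4, 10, 14, 17 and 18. A second feature was near-identical copies. For 12 of the 22 called genes with transcripts in that annotation, at least 50% of their 31-base words also occurred in another gene, as they did in 8.6% of all tested genes. The median share was 58.2% for called genes and 2.11% for all. Reads from such copies are divided among them by estimation in the authors' counting, so a single copy's value is uncertain. Both counts include genes that overlap in the genome, as Gm13301 does Gm17167 and Gm16867 does Entpd4. Words shared by overlap were not separated from words shared by copies. By name, 11 of the 25 were gene models without an established symbol (Gm and a number), and 9 had a mean under 1 CPM over all libraries.

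The group with the clearest counts lay on chromosome 10, where none of the 3 called genes has a near-identical copy. Zfc3h1 encodes a zinc-finger protein that links polyadenylated nuclear RNA to the exosome, and Thap2 a zinc-finger protein of the THAP family. They start head to head, 523 bases apart, and Tmem19, a membrane protein gene, lies just beyond Thap2. The 250 bases before each of the head-to-head starts (RefSeq, GRCm38.p6) are shown because this stretch sits between the 2 genes that fell together. The first is Thap2, chr10:115384436-115384685, minus strand, and the other is Zfc3h1, chr10:115384709-115384958, plus strand. Capitals mark matches, on either strand, to the GC box GGGCGG, the ETS motif CCGGAAG, the YY1 motif GCCATNTT or the TATA motif TATAAA, and no matches overlap one another.
Thap2: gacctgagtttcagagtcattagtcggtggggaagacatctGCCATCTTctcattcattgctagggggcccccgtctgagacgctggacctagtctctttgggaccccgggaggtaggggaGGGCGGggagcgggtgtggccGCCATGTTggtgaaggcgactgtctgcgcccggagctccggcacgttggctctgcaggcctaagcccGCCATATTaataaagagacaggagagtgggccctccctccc
Zfc3h1: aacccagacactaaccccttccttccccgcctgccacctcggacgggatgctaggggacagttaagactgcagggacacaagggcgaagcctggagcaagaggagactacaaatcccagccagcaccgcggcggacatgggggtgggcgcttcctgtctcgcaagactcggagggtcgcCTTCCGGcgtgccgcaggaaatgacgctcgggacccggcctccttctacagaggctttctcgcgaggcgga

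The Thap2 stretch holds 3 matches to GCCATNTT, a motif with a match in 3.9% of the 32851 promoter windows of that length, and 1 match to GGGCGG, found in 32.7%. The Zfc3h1 stretch holds 1 match to CCGGAAG, found in 6.9% of windows. Neither holds TATAAA, found in 12.4%. These matches describe the letters only.

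Zfc3h1 (ENSMUSG00000034163, chromosome 10, 115384959 to 115432772) measured 15.6, 15.1, 17.1 and 17.3 CPM in the WT trained libraries, against 34.3, 30.6, 25 and 24.7 CPM in the WT untrained libraries. The 8 Tg libraries lay between 14.9 and 17.7 CPM, among the WT trained values and clear of every WT untrained one. Its log2 fold change was -0.82 in WT training (SE 0.0952, adjusted p = 0.000478, edgeR) and 0.03 in Tg training. Thap2 (chromosome 10, 115368404 to 115384443) had 5.21, 6.25, 6.57 and 6.91 CPM in WT trained and 13.9, 10.9, 10.8 and 11.2 CPM in WT untrained libraries. The Tg libraries, between 5.21 and 7.45 CPM, again lay with the WT trained ones. Tmem19 (chromosome 10, 115339674 to 115362501) stood at 7.25, 7.2, 6.26 and 5.95 CPM in WT trained libraries, and at 13.1, 11.4, 11 and 9.75 CPM in WT untrained ones. Its Tg libraries lay between 6.14 and 8.17 CPM. The log2 fold changes of Thap2 and Tmem19 in WT training were -0.91 and -0.76, with adjusted p of 0.000478 and 0.00134 (edgeR).

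The next tested genes gave overlapping WT groups. Rab21, a small GTPase gene of endosomes, averaged 21.4 ± 2.44 CPM in WT trained and 22.4 ± 2.11 CPM in WT untrained libraries (SD, n = 4 each), and Tbc1d15, farther off, 9.33 ± 1.91 CPM in WT trained and 9.0 ± 1.59 CPM in WT untrained libraries. A130012E19Rik, an unnamed transcript that lies inside Zfc3h1 on its strand, had a log2 fold change of -0.79, near that of Zfc3h1, and was not called (adjusted p = 0.288, edgeR). The training response itself differed between WT and Tg muscle for Zfc3h1 and Thap2, by -0.85 and -1.04 on the log2 scale (WT minus Tg, adjusted p = 0.0266 and 0.0105, edgeR interaction term). They were the 2 lower among 9 genes called for that difference (0.0515% of genes, 0.0114% lower and 0.0400% higher), and 7 of the 9 were among the 25.

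**Figure D2:**
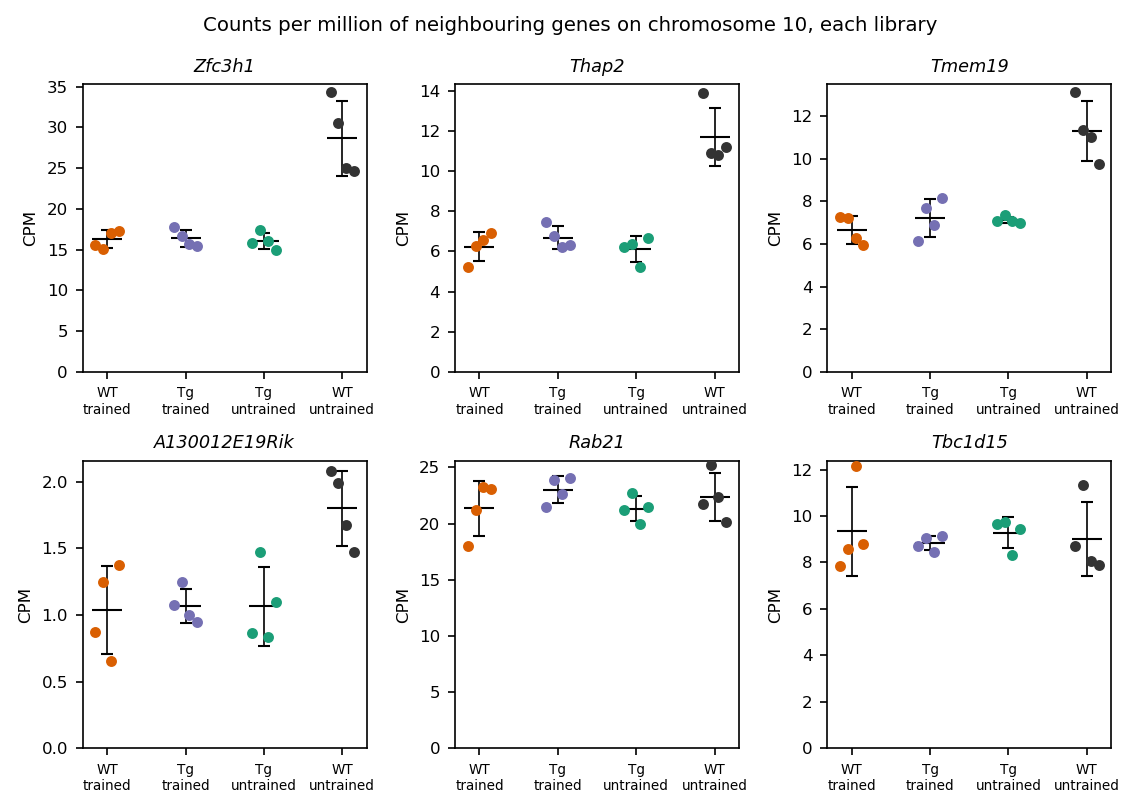
CPM in each library (dots), with group mean and SD (bars), for neighbouring genes on chromosome 10. WT untrained libraries lie above all other groups for Zfc3h1, Thap2 and Tmem19, with the lowest Zfc3h1 value at 24.7 CPM, and among the others for Rab21 and Tbc1d15.

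A further group of called genes was made of gene copies on chromosome 4, between 42206998 and 42240202, beside a copy of Gm13301 without a position. Gm17167, a transcript with no established name, measured 5.21, 7.48, 8.09 and 6.78 CPM in WT trained libraries, against 0.280, 0.302, 0.212 and 0.262 CPM in WT untrained libraries. The Tg libraries stood between 3.52 and 6.48 CPM. Gm13301 overlaps Gm17167 on the same strand, and Gm5859 and Gm17081 lie beside it. Gm13301, Gm5859 and Gm17081 were higher in WT trained libraries in the same way, by 4.70, 2.71 and 5.36 on the log2 scale. Their adjusted p were 1.11e-05, 0.000979 and 1.79e-05 (edgeR). WT untrained libraries held 0 to 4 counts of Gm13301 and 0 to 2 of Gm17081, so their fold changes rest on a handful of reads. These genes share words with each other and with 7 further copies, which held few counts. Gm12394, the most abundant of the 7, averaged 0.249 CPM in WT trained and 0.270 CPM in WT untrained libraries. Gm13302 and Gm3883 had 0 counts in every library. The sum of all copies is thus mostly that of the called genes and is no separate check on them. When the 11 copies were summed, the log2 fold change of the sum was 3.54 (adjusted p = 1.38e-06, edgeR) for WT training and 3.26 for untrained Tg against untrained WT muscle.

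On chromosome 14 a duplicated block behaved alike. Entpd4 encodes a nucleotide phosphatase of the Golgi and lysosomal membranes, and 5 of its 6 annotated transcripts are letter for letter the transcripts of Entpd4b, up to 3589 bases long. Entpd4 alone had 80.4, 77.7, 56.0 and 70.1 CPM in WT trained libraries, against 35.3, 33.3, 33.1 and 38.4 CPM in WT untrained ones, a log2 fold change of 1.02 (SE 0.156, adjusted p = 0.00700, edgeR). The copies together averaged 117 ± 13.5 CPM in WT trained, 115 CPM in Tg trained and 101 CPM in Tg untrained libraries, against 64.2 CPM in WT untrained libraries. Summed, they gave 0.86 on the log2 scale (adjusted p = 0.0176, edgeR), against 0.65 for untrained Tg over untrained WT (adjusted p = 0.0482), and the sums of the WT groups did not overlap. Gm16867, which overlaps Entpd4, rose by 2.82 (adjusted p = 0.000665, edgeR). Gm21451, a pseudogene inside the same block, had 0 counts in every WT untrained library and 0.409 CPM on average in WT trained libraries. With a floor of 3 counts over the group, that is at least 27.0-fold higher, and it was not called (adjusted p = 0.208, edgeR).

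The largest fitted value belonged to a histone gene with a near-identical copy. Hist1h4m and Hist1h4n, neighbours in the large histone cluster on chromosome 13, encode histone H4. Their transcripts differ at 1 of 402 compared bases, G36A, counted from the 5′ end of Hist1h4m, with Hist1h4m's base first. There are 2 bases between it and the ATG. The 30 bases around it, from GENCODE transcripts on GRCm38, are shown because no other base separates the copies over that length, with the differing base in capitals. Hist1h4m lies at chr13:21811767-21811796 on the plus strand and Hist1h4n at chr13:21832146-21832175 on the minus strand.
Hist1h4m: acagttttgtcttcGtcatgtctggtcgtg
Hist1h4n: acagttttgtcttcAtcatgtctggtcgtg

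Hist1h4m had 63, 60, 55 and 122 counts in WT trained libraries and 0 in each WT untrained library. With a floor of 3 counts over the group this is at least 108-fold higher, and the 8 Tg libraries had 28 to 92 counts. Hist1h4n went the other way, at 1.18 ± 0.184 CPM in WT trained and 3.44 ± 1.32 CPM in WT untrained libraries (SD, n = 4 each). Summed, the pair had 135, 105, 106 and 170 counts in WT trained libraries against 155, 301, 127 and 115 counts in WT untrained libraries. The groups overlapped, and the log2 fold change of the sum was -0.29 (adjusted p = 0.713, edgeR). Of 10 called genes each summed with its copies, Hist1h4m was the only one whose sums overlapped between the WT groups. The sets of Gm13301, Gm17081 and Gm5859 share copies, Gm17167 among them, so the 10 are not separate families. All 25 called genes had WT groups without overlap before summing, as 768 of all tested genes did (4.39%), so the absence of overlap was partly built in. Dynlt1b, a dynein light chain gene on chromosome 17, and Tmem181b-ps beside it kept their direction when summed with their copies, at -0.52 and -0.45 (adjusted p = 0.00539 and 0.0206, edgeR). Xlr3b, of an X-linked lymphocyte-regulated family, was 1.54 with its copy Xlr3a, where it no longer passed the threshold (adjusted p = 0.308, edgeR). The sums of Xlr3b and Xlr3a were at least 1.44 CPM in WT trained and at most 1.41 CPM in WT untrained libraries.

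**Figure D3:**
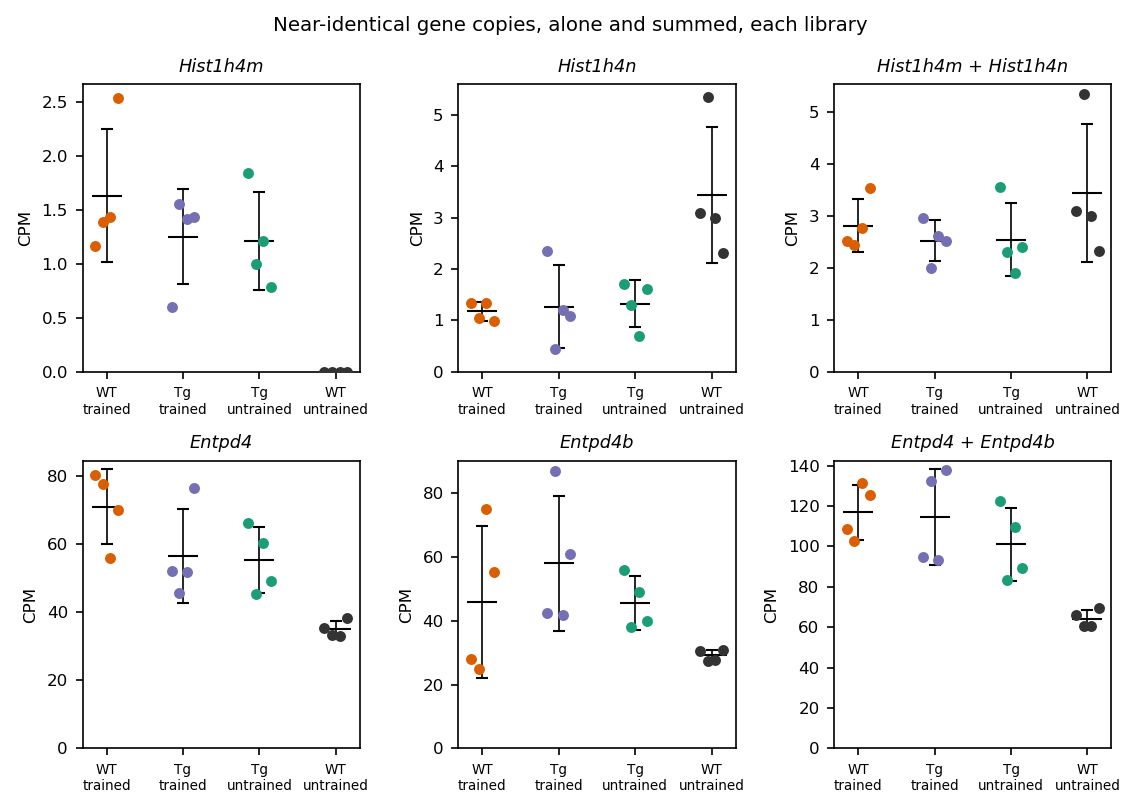
CPM in each library (dots), with group mean and SD (bars), of near-identical copies alone (left and middle) and summed (right). Hist1h4m is at 0 in the 4 WT untrained libraries while Hist1h4n is higher there, and their sums overlap. The Entpd4 and Entpd4b sums average 117 CPM in WT trained and 64.2 CPM in WT untrained libraries.

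Among called genes without a copy or a called neighbour, Rell1 and Wipf2 had the most reads, and both differences were small. Rell1, a relative of the TNF receptor RELT, measured 5.93, 6.0, 5.87 and 6.28 CPM in WT trained and 4.53, 4.27, 5.12 and 4.41 CPM in WT untrained libraries. Its log2 fold change of 0.40 (SE 0.0686, adjusted p = 0.0231, edgeR) stood beside 0.48 for untrained Tg against untrained WT muscle. Wipf2, which binds WASP-family proteins that build actin filaments, had 6.32, 6.60, 6.86 and 6.18 CPM in WT trained and 5.11, 4.66, 5.28 and 5.12 CPM in WT untrained libraries. Its log2 fold change was 0.36 in WT training (adjusted p = 0.0379, edgeR) and 0.20 in Tg training, at an unadjusted p of 0.00801 there. Untrained Tg libraries held 5.90 to 6.38 CPM of Wipf2, above every WT untrained library, and that difference missed the threshold (0.27, adjusted p = 0.0697, edgeR).

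Zfp185 was the 1 called gene whose untrained Tg libraries overlapped the untrained WT libraries. It lies on the X chromosome (72987339 to 73031543) and encodes a LIM-domain protein of the actin cytoskeleton. WT trained libraries had 0.502, 0.463, 0.576 and 0.728 CPM, against 1.38, 0.924, 1.23 and 1.59 CPM in WT untrained libraries. Tg trained libraries lay at 0.902, 0.807, 0.630 and 0.777 CPM and Tg untrained ones at 1.12, 0.983, 1.20 and 0.988 CPM, so that trained libraries were lower than untrained ones in both genotypes without overlap. The log2 fold change was -1.17 in WT training (SE 0.189, adjusted p = 0.0117, edgeR) and -0.46 in Tg training (unadjusted p = 0.021), and the difference of these responses missed the threshold (adjusted p = 0.729, edgeR interaction term). Against untrained Tg libraries, WT trained libraries were lower by 0.92 on the log2 scale, at the adjusted p of 0.0801 given above. The counts behind it were small, 20 to 35 per WT trained library and 52 to 79 per WT untrained library, and leaving out 1 library at a time put its adjusted p above 0.05 in 4 of 16 cases, at 0.0665 at most.

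Below the threshold, the genes with the smallest p divided in the same way, into those where untrained Tg libraries sided with WT untrained and those where they did not. Rcan1, an inhibitor of calcineurin whose transcription calcineurin induces, had 27.1, 28.2, 25.9 and 35.2 CPM in WT trained libraries, against 19.0, 19.1, 22.8 and 20.9 CPM in WT untrained ones. Tg untrained libraries lay at 20.2 to 24.3 CPM and Tg trained ones at 20.1 to 25.3 CPM, so that WT trained libraries stood above all others. Its log2 fold change was 0.51 in WT training (adjusted p = 0.0840, edgeR), 0.06 for untrained Tg against untrained WT and 0.04 in Tg training. Myh8, the perinatal myosin heavy chain, had 4.48, 3.91, 8.04 and 6.24 CPM in WT trained and 2.82, 2.76, 3.49 and 3.04 CPM in WT untrained libraries (0.90, adjusted p = 0.0840, edgeR). Its Tg libraries ranged from 2.58 to 3.97 CPM. Neither gene was called for a difference between the training responses (unadjusted p = 0.00521 for Rcan1 and 0.0127 for Myh8).

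Il6st and Sbk2 had the same sign in both genotypes, again short of the threshold. Il6st encodes gp130, the signalling receptor of interleukin-6 family cytokines, and had 125, 118, 127 and 126 CPM in WT trained libraries against 175, 260, 187 and 182 CPM in WT untrained ones. Tg trained libraries stood at 120 to 128 CPM, and Tg untrained ones split into 194 and 197 CPM in a pair of libraries and 128 and 127 CPM in the others. The log2 fold change was -0.70 in WT (adjusted p = 0.104, edgeR) and -0.38 in Tg training. Sbk2, a muscle serine/threonine kinase gene, had 64.4, 66.1, 48.8 and 57.0 CPM in WT trained libraries and 37.5, 37.0, 39.6 and 39.8 CPM in WT untrained ones. Trained libraries lay above untrained ones in both genotypes, with 43.5 to 61.3 CPM in Tg trained and 23.4 to 36.2 CPM in Tg untrained libraries. Its log2 fold change was 0.62 in WT (adjusted p = 0.107, edgeR) and 0.81 in Tg training (unadjusted p = 1.34e-05). It was also 1 of the 4 genes called between WT trained and Tg untrained libraries (0.90, adjusted p = 0.0167, edgeR), beside Chchd4. Iffo1, an intermediate-filament gene, had 0.39 in WT and 0.29 in Tg training, and Sp3, a transcription factor gene, -0.26 and -0.07. By contrast Pik3c3, the lipid kinase of autophagy, Rif1, a DNA repair and replication-timing gene, and Atcayos had WT untrained libraries outside the range of the other 12, with values of -0.33, -0.26 and 0.39 in WT training beside -0.28, -0.21 and 0.56 for untrained Tg against untrained WT muscle. The same comparisons gave 0.42 and 0.36 for Rnaset2a, a ribonuclease gene.

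**Figure D4:**
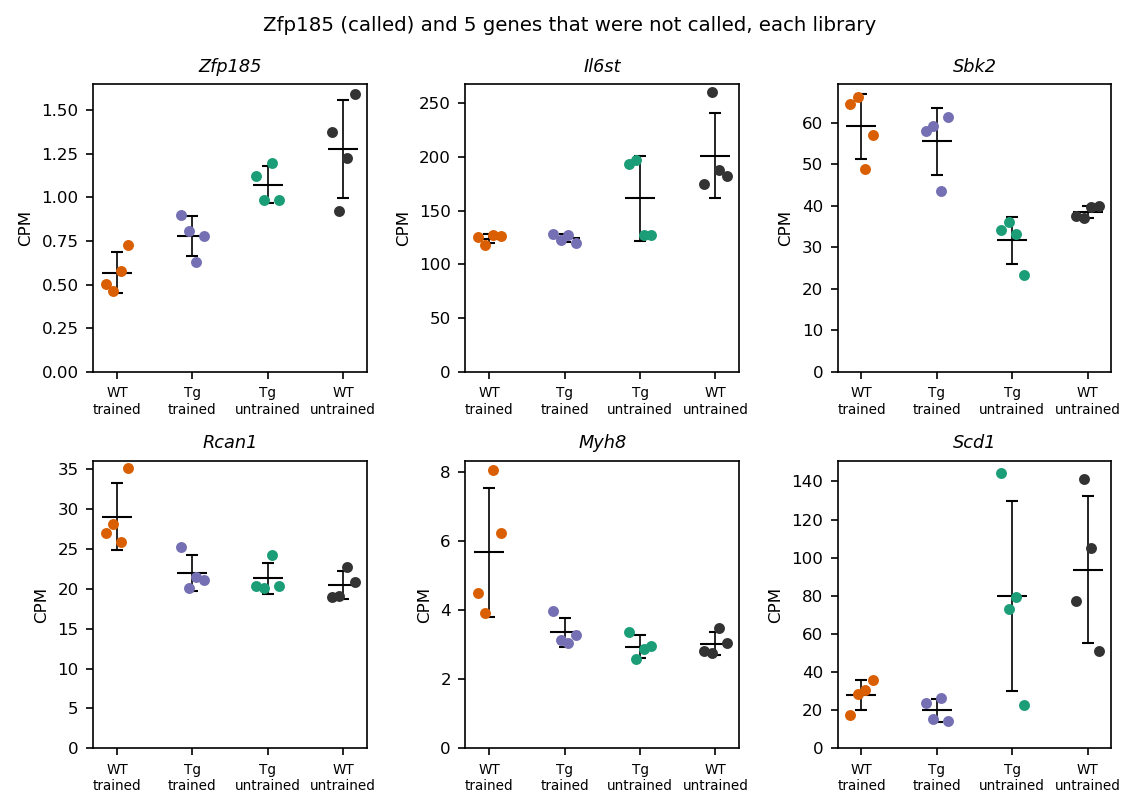
CPM in each library (dots), with group mean and SD (bars), of Zfp185, which was called, and of 5 genes that were not. Tg untrained libraries overlap or lie below WT untrained ones in all 6 panels, with Il6st split into a high and a low pair. Rcan1 and Myh8 are highest in WT trained libraries, at 25.9 CPM or more for Rcan1.

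Other tests gave other numbers of calls. DESeq2 called 68 genes for WT training, 38 higher and 30 lower, among them all 25 named above, and 42 of the 68 were called the same way for untrained Tg against untrained WT muscle by DESeq2. The other 26 included Il6st, Rcan1, Sbk2, Myh8, Sp3, Iffo1 and Scd1. Restricted to the 8 WT libraries, edgeR called 10 genes, all among the 25. Without the 3 libraries that held Alb, it called 42, of which 17 were called the same way for untrained Tg against untrained WT. There, 22 genes were added that were not so called, 19 of them lower in WT trained libraries. They included Tnc, Thbs4, Col24a1 and Serpinh1, genes of tendon and collagen, and were picked out after their values were seen. Col24a1, a minor fibrillar collagen, had a log2 fold change of -0.80 in that fit (adjusted p = 0.00174, edgeR) and -0.43 with all libraries (adjusted p = 0.589).

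No gene of the 35 pathway and cell type lists was called. Over their 662 tested entries edgeR called 0, with 87 (13.1%) at an unadjusted p under 0.05, against 1670 of all 17490 genes. DESeq2 called 5 of the entries, Lpl, Rcan1, Scd1, Thrsp and Myh8, and limma-voom 0. The median log2 fold change of all genes was 0.01, and the list medians below are differences between WT trained and WT untrained libraries on the same scale.

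The positive medians of energy metabolism shrank or turned negative without WT untrained 2. The median was 0.13 over 71 nuclear genes of oxidative phosphorylation, with 68 positive, 0.12 over 20 genes of pyruvate entry and the tricarboxylic acid cycle, with 19 positive, 0.23 over 23 glycolysis and glycogen genes, with 22 positive, and 0.16 over 26 genes of fatty acid uptake and oxidation, with 24 positive. Without WT untrained 2 these medians were -0.04, -0.05, 0.05 and 0.02, and 17 of the 71 oxidative phosphorylation genes were positive. Cox5a, a subunit of cytochrome oxidase, shows the pattern, at 152, 152, 154 and 136 CPM in WT trained libraries and 136, 71.4, 143 and 140 CPM in WT untrained ones. Cyc1, cytochrome c1 of complex III, had 116, 113, 120 and 110 CPM in WT trained and 102, 49.8, 114 and 108 CPM in WT untrained libraries. Among 13 mitochondrially encoded proteins the median was 0.16, and 0.05 without that library. mt-Co3, another cytochrome oxidase subunit, had the largest value there (2.09, adjusted p = 0.419, edgeR), which came from 5788 CPM in WT trained 1 beside 300, 452 and 741 CPM in the other WT trained libraries. In WT untrained libraries mt-Co3 had 203 to 730 CPM, and without WT trained 1 the value was 0.22.

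The muscle's own training regulators showed the same dependence in part. Ppargc1a had 32, 33.2, 51.8 and 58.9 CPM in WT trained libraries, against 31, 17.6, 35.3 and 31.9 CPM in WT untrained ones, and the groups overlapped. Its log2 fold change was 0.60 (unadjusted p = 0.00732, adjusted p = 0.374, edgeR), 0.42 without WT untrained 2, and 0.31 in Tg training. The 27 regulators had a median of 0.08, with 17 positive, and of 0.03 without WT untrained 2. Vegfa, the angiogenic growth factor, had 109, 120, 115 and 126 CPM in WT trained libraries and 109, 45.6, 104 and 103 CPM in WT untrained ones. Slc2a4, the insulin-responsive glucose transporter GLUT4, had 265 to 283 CPM in WT trained and 150 to 265 CPM in WT untrained libraries, with 150 CPM in WT untrained 2. Hk2, the hexokinase of muscle, had 300 to 387 CPM in WT trained and 294 to 376 CPM in WT untrained libraries. Pdk4, which shuts off pyruvate oxidation, Ucp3, a mitochondrial carrier, and Triap1, a mitochondrial intermembrane space protein, had log2 fold changes of -0.20, -0.09 and -0.02. Gadd45a, a stress-response gene, stood at 52.6 CPM in WT untrained 2 and at 6.27 to 9.90 CPM in the other 7 WT libraries, and the summed level of 21 genes of muscle atrophy and autophagy was 2219 CPM in that library and 989 to 1075 CPM in the other 3 WT untrained libraries.

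The 3 fast myosin heavy chains gave overlapping WT groups. Myh4 (IIB) had 31267 to 37430 CPM in WT trained and 24618 to 34185 CPM in WT untrained libraries, Myh1 (IIX) 7731 to 11032 CPM in WT trained and 3296 to 10810 CPM in WT untrained libraries, and Myh2 (IIA) 536 to 697 CPM in WT trained and 127 to 613 CPM in WT untrained libraries. Their log2 fold changes were 0.16, 0.21 and 0.43, at adjusted p of 0.750, 0.842 and 0.724 (edgeR). Myh7, the slow myosin, had 2.25, 2.22, 29.7 and 6.62 CPM in WT trained libraries and 2.26, 11.2, 2.12 and 2.38 CPM in WT untrained ones, so that a single library led each group. Tnni1, the slow troponin I, had 1.12, 0.718, 3.67 and 1.73 CPM in WT trained libraries and 0.519, 0.871, 0.495 and 0.886 CPM in WT untrained ones. It had log2 fold changes of 1.35 in WT training (unadjusted p = 0.0374, adjusted p = 0.500, edgeR), 1.93 for untrained Tg against untrained WT muscle and -1.63 in Tg training. The 16 slow-twitch genes had a median of 0.43 with 12 positive, and of -0.26 in Tg training. For untrained Tg against untrained WT muscle, where no training is involved, it was 0.63 with 11 positive. There 9 of the 16 had an unadjusted p under 0.05 (edgeR), against 1 in WT training. With 1 library left out the WT median ran from 0.17 (without WT trained 3) to 0.59 (without WT untrained 4), with 0.29 without WT untrained 2 and 0.22 without WT trained 4. The median of 16 fast-twitch genes was 0.11, and -0.01 without WT untrained 2.

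Lists of tendon, fibroblast and fat genes had negative medians in WT training, with no gene called. All 14 tested tendon and cartilage genes had a negative log2 fold change, with a median of -1.15 and an unadjusted p under 0.05 for 9. The median was -0.997 without WT untrained 2, -1.89 without WT trained 4 and, at its smallest with 1 library left out, -0.88 without WT trained 2. Their summed level was 108, 49.3, 69.4 and 187 CPM in WT trained and 190, 196, 175 and 224 CPM in WT untrained libraries, so that WT trained 4 alone reached the untrained range. Tnc, the matrix protein tenascin C, had 3.89, 2.25, 2.1 and 9.78 CPM in WT trained libraries and 10.6 to 12.4 CPM in WT untrained ones (-1.31, adjusted p = 0.335, edgeR), and passed the threshold without WT trained 4 (-2.01, adjusted p = 0.0124). Kera, a matrix proteoglycan, had -1.55, Thbs4, a thrombospondin of tendon, -0.78, and Dcn, which binds collagen fibrils, -0.73. Scx, the tendon transcription factor, had -1.19, and -0.31 without WT untrained 2, whose 9.17 CPM stood apart from 1.44 to 2.34 CPM in the other 7 WT libraries. Thbs1, another thrombospondin, had -1.90, and -0.91 without WT untrained 3, which held 78.7 CPM where the other WT untrained libraries had 15.6 to 16.1 CPM. For untrained Tg against untrained WT muscle, Scx and Thbs1 had -0.87 and -0.84. Tnc, Kera, Thbs4 and Dcn had 0.10, 0.003, 0.16 and -0.14 there. In the 29 collagen and matrix genes the median was -0.20 with 26 negative, and -0.10 without WT trained 2. Without WT trained 4 it was -0.31, and 2 of the list were among the 30 genes called in that fit. Without the 3 libraries that held Alb it was -0.45, with 26 of the 29 at an unadjusted p under 0.05 and 1 among the 42 called. In 15 fibroblast and fibro-adipogenic progenitor markers the median was -0.30 with 12 negative, among them Gsn (-0.48), and -0.17 without WT untrained 2. In Tg training the tendon median was -0.58 and the collagen median -0.24. Fewer cells of a type and less RNA per cell cannot be told apart in these samples.

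The 15 adipocyte markers had a median of -0.72, with 12 negative and 11 at an unadjusted p under 0.05, and of -1.19 in Tg training with 13 negative. The WT median was -0.54 without WT untrained 2 and -0.89 without WT trained 4. The summed level of the list was 747 to 1352 CPM in WT trained and 1074 to 1536 CPM in WT untrained libraries, so the groups overlapped. Lep, which encodes leptin, had 0.112, 0.718, 0.602 and 0.437 CPM in WT trained libraries, against 2.48, 2.56, 2.29 and 1.09 CPM in WT untrained ones. Tg libraries had 0.0583 to 0.925 CPM with training and 2.18 to 9.21 CPM without it, and the log2 fold changes were -2.21 in WT and -3.53 in Tg training. Scd1, the desaturase that makes monounsaturated fatty acids, had 17.5, 28.3, 30.6 and 35.8 CPM in WT trained libraries, against 77.2, 141, 105 and 51.1 CPM in WT untrained ones. Its WT groups did not overlap, as for 768 genes in all (4.39%), and the log2 fold change was -1.74 in WT (adjusted p = 0.215, edgeR) and -2.0 in Tg training. Fasn, fatty acid synthase, had -0.86 in WT and -0.61 in Tg training. Untrained Tg against untrained WT muscle gave -0.49 for Fasn and -0.23 for Scd1. Cidea, a lipid droplet gene, differed in sign from these markers, at 1.49. Thrsp, a regulator of lipogenesis, and Lpl, lipoprotein lipase, had -0.47 and 0.48, and for both the WT untrained libraries lay outside the range of the other 12. The part of fat or tendon tissue in these differences was not tested.

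**Figure D5:**
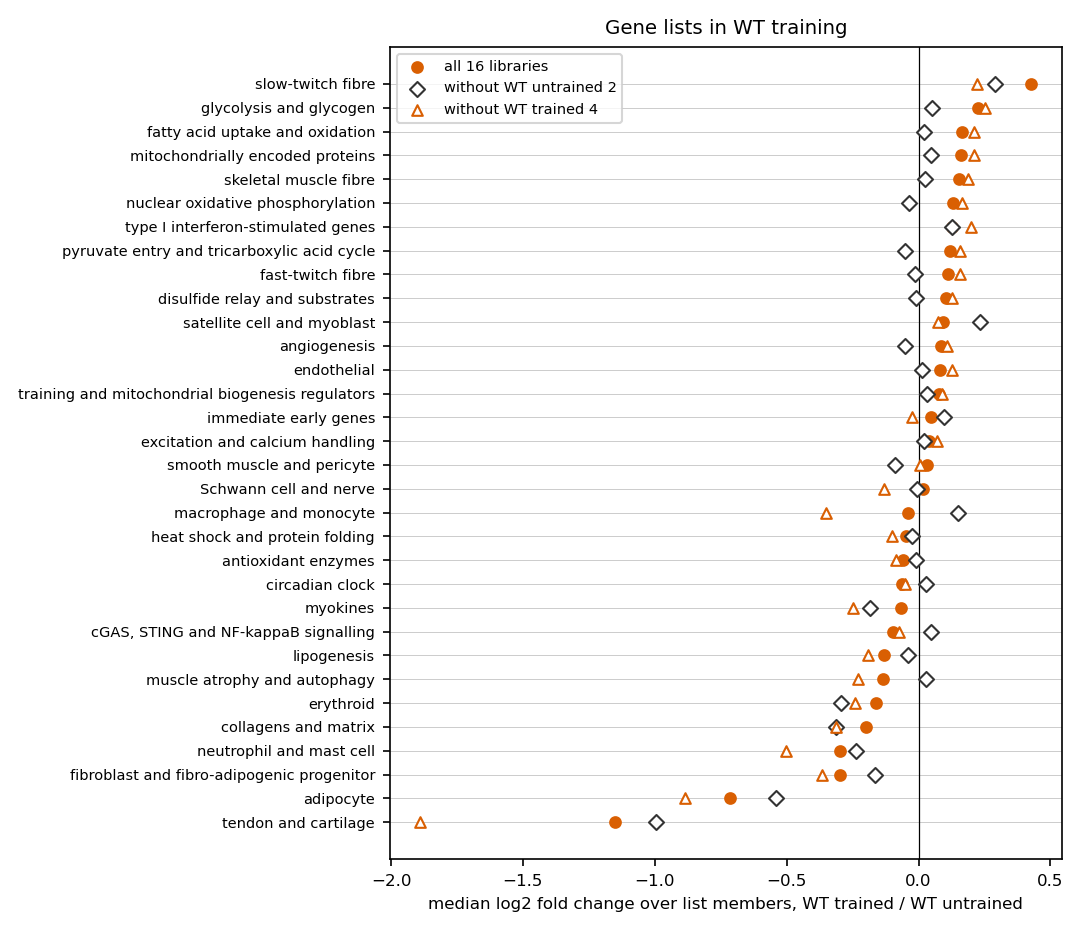
Median log2 fold change of WT trained against WT untrained libraries (x axis) over the tested members of each list (y axis), for lists with at least 5 tested members, with all libraries (filled dots), without WT untrained 2 (diamonds) and without WT trained 4 (triangles). The 71 oxidative phosphorylation genes move to -0.04 without WT untrained 2, and the tendon list to -1.89 without WT trained 4.

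Medians of the signalling lists lay near 0, and several changed sign without WT untrained 2. Immediate early genes, transcription factors that respond within minutes to activity, had a median of 0.05 over 24 genes in WT training, against -1.01 in Tg training, where all 24 were negative. The WT median was 0.10 without WT untrained 2 and -0.02 without WT trained 4. Fos had 5.88, 2.48, 11.2 and 13.4 CPM in WT trained and 5.53, 2.13, 3.18 and 3.16 CPM in WT untrained libraries. Egr1 had 5.34, 2.94, 2.80 and 2.21 CPM in WT trained and 1.54, 1.96, 1.65 and 1.17 CPM in WT untrained libraries (1.08, adjusted p = 0.441, edgeR). In Tg untrained libraries Fos stood at 7.72, 9.09, 39.0 and 16.1 CPM and Egr1 at 2.99, 6.23, 5.23 and 10.3 CPM, above every WT untrained library. Against untrained WT libraries, untrained Tg libraries were higher by 2.36 for Fos, 1.97 for Egr1 and 1.28 for Klf2, another factor of the list (adjusted p = 0.0498, 0.0380 and 0.0138, edgeR), and the Tg training median has those Tg untrained libraries as its baseline.
The 39 type I interferon-stimulated genes had a median of 0.13 with 31 positive, 0.13 without WT untrained 2, 0.20 without WT trained 4 and 0.05 without WT trained 1. For cGAS, STING and NF-kappaB signalling the median was -0.10, and 0.05 without WT untrained 2. It was 0.10 for disulfide relay substrates, and -0.01 without that library. Angiogenesis genes had 0.09, and -0.05 without it. Circadian clock genes had -0.06, and 0.03 without it. Genes of muscle atrophy and autophagy had -0.13 with 2 of 21 positive, and 0.03 with 13 of 21 positive without it, against -0.23 without WT trained 4. For untrained Tg against untrained WT muscle, the angiogenesis, clock and atrophy medians were 0.20, -0.02 and -0.20, the last with 1 of 21 genes positive. Lipogenesis had -0.13, with -0.04 without WT untrained 2 and -0.19 without WT trained 4, and myokines -0.07, with -0.18 and -0.25 in those fits. Heat shock and folding genes had -0.05, with -0.02 without WT untrained 2 and -0.10 without WT trained 4. Antioxidant enzymes had -0.06, and -0.01 without WT untrained 2, and excitation and calcium handling 0.04, with 0.02 without WT untrained 2 and 0.07 without WT trained 4.
In the heat shock list, Hspa8, a constitutive chaperone, had -0.21 with the WT untrained libraries above all 12 others, and Hspb6, a small heat shock protein of muscle, had 0.66. Untrained Tg against untrained WT muscle gave -0.31 for Hspa8 and 0.45 for Hspb6. Tg training gave -0.14 for Hspa8 and 0.53 for Hspb6. Without WT untrained 2, Hspb6 had 0.41 in WT training. The clock genes Clock and Ciart had -0.34 and -0.46, beside -0.39 and -0.42 for untrained Tg against untrained WT muscle. In Tg training they had 0.04 and -0.37 (unadjusted p = 0.0153 for Ciart, edgeR). For Clock the WT untrained libraries lay outside the range of the other 12. Nnt, a mitochondrial transhydrogenase that regenerates NADPH, had 8.97, 21.2, 10.8 and 26.8 CPM in WT trained libraries, against 44.4, 36.5, 29.3 and 43.1 CPM in WT untrained ones. Its Tg libraries ran from 6.25 to 36.9 CPM, and at -1.18 (adjusted p = 0.490, edgeR) it was not called. Untrained Tg against untrained WT muscle gave -1.34 for Nnt. These values belong to the more abundant of 2 identifiers named Nnt. The other had 1.62, 6.72, 0 and 0 CPM in WT trained libraries. In WT untrained libraries it had 0.44, 0, 13.5 and 4.05 CPM. The entries were not summed, and whether reads were divided between them was not tested.

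Among markers of other cell types, macrophages and monocytes had a median of -0.04 in WT training, and of 0.15 without WT untrained 2 and -0.35 without WT trained 4. The endothelial median was 0.08, with 0.01 and 0.13 in those fits, and the median of smooth muscle and pericytes 0.03, with -0.09 and 0.01. Schwann cell genes had 0.02, with -0.01 without WT untrained 2 and -0.13 without WT trained 4, and satellite cell and myoblast genes 0.09, with 0.23 and 0.07. The erythroid median was -0.16, with -0.29 and -0.24, and that of neutrophils and mast cells -0.30, with -0.24 and -0.50. Notch3, a pericyte receptor, was lower in WT untrained libraries than in all 12 others, with 0.44 in WT training and 0.54 for untrained Tg against untrained WT muscle. Actn2, a Z-disc protein of the fibre list, had 0.60, with 101 CPM in WT untrained 2 and 202 to 349 CPM in the other 7 WT libraries. It had 0.66 for untrained Tg against untrained WT muscle. Fewer than 5 members were tested of the lymphocyte, liver and keratinocyte lists, with medians of 0.13, 0.27 and -0.17. Without WT untrained 2 these were -0.12, 3.03 and 0.04, and without WT trained 4 they were -0.12, -3.0 and -0.05.

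Training responses of the genotypes overlapped in part at a lenient threshold. They compare separate libraries but were tested with a shared estimate of each gene's spread. A low shared spread gives smaller p in both, so part of the overlap can be built in. At an unadjusted p under 0.05, 1670 genes were found in WT and 1938 in Tg training, and 311 in both. They made up 18.6% of the WT list, where 11.1% of all tested genes were on the Tg list. Of the Tg list they made up 16%, where 1670 of all 17490 genes were on the WT list. Of the 311, 275 had the same sign. Across all tested genes, which are not independent, the log2 fold changes of the WT and Tg training responses had a Pearson r of 0.195 and a Spearman rho of 0.231, given as a description.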

How the data were processed

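SMARTer mRNA-seq libraries were made from column-purified RNA, per the labels' protocols. The submitters' processing notes name STAR 2.7.8a, RSEM 1.3.2 and mm10, and no source used here names the annotation release. The authors deposited RSEM expected counts, not normalized, for 16 libraries. Of these values 12.48% were not whole, and all were rounded. RSEM shares reads out among similar genes. No source gives the strandedness, so a gene cannot be told from one antisense to it or overlapping it.

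The quasi-likelihood test of edgeR 4.0.16 (under R 4.3.3) was fitted to all 16 libraries, each group having its own mean, after filterByExpr with a minimum count of 10 and TMM scaling, with Benjamini-Hochberg adjustment within each contrast. The biological coefficient of variation was 14.14%. Tested on simulated data of WT trained against WT untrained libraries with 17332 genes, the model recovered 65 of 100 genes changed 2-fold and 94 of 100 changed 4-fold, and called 5 unchanged genes. Simulated counts were drawn independently from the gene means and fitted spread, with no outlying library such as WT untrained 2. The recovery therefore does not give the power of the real comparison. CPM are scaled by TMM. Gene positions and transcripts came from GENCODE M21, by identifier without version (55227 of 55487 matched). No 2 replicates were alike within sampling noise (lowest chi-square per degree of freedom 7.08).

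Named were all called genes, up to 3 of smallest p in each list, the 5 of smallest p in each direction among uncalled genes with a mean of at least 5 CPM, and a set of training genes. Others were chosen after their values were seen. One gene that the rule names is not reported here. The libraries, lists, rules and tests were chosen with earlier results of these data known. Alternatives were RLE size factors, other filters, DESeq2 1.42.0, limma-voom 3.58.1, robust dispersion, fits on the 8 libraries of a contrast, a replicate block and leaving out each library. Leaving out libraries with over 10 CPM of Alb or of Myh7, and summing copies, were added after seeing the data.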

Additional observations from a re-analysis of the deposited data

Results flagged for a closer look

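Of 218 groups of 4 WT libraries examined for a library far from the other 3 (above Dixon's critical value), 30 had one. That value is passed by about 1 in 20 independent groups that were not selected. The groups here share the same 8 libraries and include genes chosen after their values were seen. The 1 in 20 is therefore no yardstick for the 30. In 21 of the 30 the library was WT untrained 2. It was the highest of its group for Il6st at 260 CPM, Dcn at 226 CPM, Scx at 9.17 CPM, Gadd45a at 52.6 CPM, Myh7 at 11.2 CPM and Hk2 at 376 CPM. It was the lowest for Lpl at 104 CPM, Vegfa at 45.6 CPM and Cox5a at 71.4 CPM. Its summed levels were lowest for oxidative phosphorylation (5792 CPM), pyruvate entry and the tricarboxylic acid cycle (2284 CPM), glycolysis and glycogen (12813 CPM), disulfide relay substrates (831 CPM), excitation and calcium handling (14466 CPM), skeletal muscle fibre markers (106330 CPM) and smooth muscle and pericyte markers (542 CPM). They were highest for the circadian clock (950 CPM), atrophy and autophagy (2219 CPM), cGAS, STING and NF-kappaB signalling (169 CPM), liver (36.4 CPM) and keratinocyte and hair follicle markers (10.8 CPM).

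WT trained 4 was the lowest of its group for Cox5a (136 CPM) and the antioxidant sum (876 CPM), and the highest for the liver sum (51.6 CPM). WT trained 3 was highest for Myh7 (29.7 CPM) and the lymphocyte sum (29.2 CPM), and WT trained 1 for mt-Co3 (5788 CPM). In WT untrained libraries, replicate 1 was highest for Thap2 (13.9 CPM), replicate 3 for Thbs1 (78.7 CPM) and replicate 4 for the Gm13301 copy without a position (0.0806 CPM, where the other 3 had 0).

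The training response differed between WT and Tg muscle by the interaction term (WT minus Tg, log2 scale) for 7 of the 25 called genes. The differences were 4.71 for Gm17167, 6.4 and 4.62 for the pair of Gm13301 identifiers, 5.45 for Gm17081, -0.845 for Zfc3h1 and -1.04 for Thap2. Hist1h4m had 9.29, which 0 counts in WT untrained libraries set and which measures no fold.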

How the results depend on the processing

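The 25 calls between trained and untrained WT libraries became 68 with DESeq2, 10 with the 8 WT libraries alone, and 42 without Alb-high libraries. Leaving out 1 library gave 16 to 30, with 16 without WT untrained 4, and the replicate block gave 20. The 21 calls shared with untrained Tg against untrained WT became 42 with DESeq2, 8 with the 8 libraries, 11 without Myh7-high libraries and 15 to 21 with 1 library left out. The 130 calls of untrained Tg against untrained WT became 442 (DESeq2), 66 (replicate block), 40 (8 libraries), 32 (without Myh7-high) and 43 to 138 (1 library left out). The 4 of WT trained against Tg untrained became 233 (DESeq2), 7 (8 libraries), 270 (without Alb-high), 31 (without Myh7-high) and 1 to 285, with 285 without WT untrained 2. The 0 of Tg training became 5 (no filter), 132 (DESeq2), 123 (8 libraries), 104 (without Alb-high), 9 (without Myh7-high) and 0 to 93. The 9 of the response difference became 15 (no filter), 37 (DESeq2), 4 (without Myh7-high) and 6 to 12, and could not be fitted on 8 libraries. The causes were not tested.

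Some uncalled genes changed sign. With 1 library left out, Chchd4 ran from -0.0269 (without WT untrained 2) to 0.109, Triap1 from -0.0721 to 0.0244 (without WT trained 4), Gadd45a from -1.53 to 0.254 (without WT untrained 2), Myh1 from -0.0573 (without WT untrained 2) to 0.373, Myh7 from -0.299 (without WT trained 3) to 2.14 and Pdk4 from -0.314 to 0.00284 (without WT untrained 3). Without Alb-high libraries, Triap1 was 0.0223 and Gadd45a 0.296. Without Myh7-high libraries, Chchd4 was -0.0428, Gadd45a 0.107 and Myh1 -0.106. List medians changed sign for 13 of 35 lists without WT untrained 2, oxidative phosphorylation, fast-twitch fibre and macrophage genes among them, and for 4 without WT trained 4. Same-numbered libraries correlated by over 0.1 in 6 of 24 pairs, and 2 of 8 WT libraries correlated best with their own number. Same-numbered Tg trained and Tg untrained libraries correlated by 0.058 to 0.176. No clear pairing was seen, and such low correlations cannot exclude one. Low counts limit genes under 1 CPM, such as Zfp185, and CPM of near-identical copies.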
